A study of Mus musculus with 12 samples.

Results

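Genes that an egg uses to fuse with sperm and to block further sperm were followed in mouse oocytes across the pubertal transition. The 6 genes were Izumo1r, Cd9 and Cd81, whose products act at the egg surface in fusion, and Astl, Snap25 and Nsf, whose products belong to cortical granules or to their release. They were chosen by name for these roles and matched by gene symbol, 6 of the 24562 genes in the count table, and all 6 were among the 13943 genes with enough reads to be tested. RNA-Seq had been performed on pools of oocytes from unstimulated female CD-1 mice, an outbred strain, at postnatal day (PND) 13, 16 and 40. The PND 16 mice were divided by body weight into small and large, which gave 4 cohorts with n = 3 pools of 18 to 45 oocytes each. Oocytes were taken from antral follicles, freed of cumulus cells by pipetting, and held with an intact germinal vesicle in milrinone, a phosphodiesterase inhibitor that keeps meiosis arrested. No cohort received gonadotropins. The study grouped PND 16 large and PND 40 as meiotically competent and PND 13 and PND 16 small as non-competent. It described 3 mice and 3 independent pools per cohort, and the sample labels do not tie a pool to an animal, so p-values below measure the spread between these pools.

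Expression is given as counts scaled to the total of the pool (CPM) with TMM factors between pools, and as mean ± SD over pools. Totals ranged from 17671193 to 27418358 counts per pool. A gene was called differentially expressed at an edgeR adjusted p of at most 0.05 together with a change of at least 1.5-fold, which is 0.58 on the log2 scale. Since CPM is a share of the RNA counted, an amount per oocyte was not measured, and in pools of cells fewer cells of a type and less RNA per cell cannot be told apart. The pools carried oocyte RNA: 10 oocyte markers, among them Gdf9, Bmp15 and Zp3, summed to between 12109 and 14851 CPM with none at 0. The 14 markers of granulosa and cumulus cells, which surround the oocyte, summed to between 131 and 693 CPM. They were highest in PND 13 replicates 1 and 3 and PND 16 small replicate 2, at 551, 638 and 693 CPM, and at most 265 CPM in the other pools. Theca and stroma markers summed to 6.96 to 41.1 CPM, and the 4 hemoglobin genes were at 0 in every pool. Results that rest on these 3 pools are given below with and without them.

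At fertilization, the sperm protein IZUMO1 docks onto JUNO, a GPI-anchored receptor on the egg membrane that is encoded by Izumo1r. The tetraspanins CD9 and CD81 organize the same membrane, and eggs that lack CD9 rarely fuse. After fusion, a calcium rise releases the cortical granules under the egg surface, vesicles whose fusion with the membrane is driven by SNARE proteins such as SNAP25. NSF is the ATPase that takes spent SNARE complexes apart so that they can be used again. One of the granule enzymes, ovastacin, the product of Astl, cleaves the zona pellucida protein ZP2 and so hardens the coat against more sperm. Growing oocytes store transcripts well before fertilization.

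The promoters of the 4 members whose levels changed below are shown because they moved in different directions: Izumo1r was higher in the older oocytes, and Astl, Nsf and Cd9 were lower. Each line holds the 250 bases before a transcript start from RefSeq on GRCm38.p6, read 5′ to 3′ on the gene's strand. Capitals mark E-boxes (CANNTG, the same on both strands), the core recognized by basic helix-loop-helix factors, which include FIGLA of the oocyte. The positions are chr9:14903768-14904017 (minus strand) for Izumo1r, chr2:127338389-127338638 and chr2:127341386-127341635 (plus strand) for the starts 1 and 2 of Astl, chr11:103954057-103954306 (minus strand) for Nsf and chr6:125494761-125495010 (minus strand) for Cd9.
Izumo1r: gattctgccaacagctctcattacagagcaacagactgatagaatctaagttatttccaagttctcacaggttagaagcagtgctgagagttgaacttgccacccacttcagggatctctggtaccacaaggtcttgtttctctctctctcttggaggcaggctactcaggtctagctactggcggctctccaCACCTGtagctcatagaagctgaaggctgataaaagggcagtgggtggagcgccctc
Astl start 1: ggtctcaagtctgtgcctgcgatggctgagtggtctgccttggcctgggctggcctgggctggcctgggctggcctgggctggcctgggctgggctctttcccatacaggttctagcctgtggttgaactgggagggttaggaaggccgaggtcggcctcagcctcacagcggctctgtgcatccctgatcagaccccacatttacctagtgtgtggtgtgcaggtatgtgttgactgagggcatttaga
Astl start 2: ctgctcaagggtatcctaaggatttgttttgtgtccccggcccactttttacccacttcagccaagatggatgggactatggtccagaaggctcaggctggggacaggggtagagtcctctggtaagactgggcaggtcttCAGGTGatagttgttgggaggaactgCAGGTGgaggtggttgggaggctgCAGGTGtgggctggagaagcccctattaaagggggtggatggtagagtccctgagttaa
Nsf: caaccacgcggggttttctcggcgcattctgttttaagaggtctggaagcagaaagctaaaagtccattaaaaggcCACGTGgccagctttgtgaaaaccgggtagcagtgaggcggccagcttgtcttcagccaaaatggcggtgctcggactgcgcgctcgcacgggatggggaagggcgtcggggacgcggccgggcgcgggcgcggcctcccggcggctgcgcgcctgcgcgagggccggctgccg
Cd9: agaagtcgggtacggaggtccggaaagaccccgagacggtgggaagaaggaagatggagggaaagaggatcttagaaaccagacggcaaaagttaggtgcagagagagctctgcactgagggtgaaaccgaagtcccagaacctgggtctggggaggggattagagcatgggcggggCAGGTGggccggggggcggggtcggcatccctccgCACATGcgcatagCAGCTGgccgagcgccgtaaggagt

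In the 300-base windows that also hold the 50 bases after the start, the promoters of Izumo1r and Astl were poor in CpG, with 3 CpG for Izumo1r and 5 and 1 for the Astl starts 1 and 2. The other promoters held more, 18 for Cd9, 23 for Cd81 and 38 for Nsf, against a median of 7 over 32851 promoters of the same length. The same E-box, CAGGTG, stood 3 times within the window of Astl start 2, and start 1 had none. CAGGTG also stood in Cd9, and the E-box of Izumo1r, CACCTG, is CAGGTG read on the other strand. Izumo1r, Cd81 and Nsf had 1 E-box each and Cd9 had 3, while 72.3% of all promoters held at least 1. The letters TAATTG or TAATTA, a homeobox element that NOBOX binds, were in 12.4% of promoters and in none of these 6 windows. A GC box (GGGCGG, either strand) occurred 2 times in Cd9 and 3 times in Cd81, overlapped no E-box, and was present in 35.7% of promoters. The table of promoters gave no entry for Snap25.

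Izumo1r, the JUNO receptor, was the 1 member with more transcript in the older oocytes. It lies on chromosome 9, at 14885814 to 14903949 on the minus strand of GRCm38. Its levels were 89.2, 115 and 89.0 CPM in the PND 13 pools and 110, 104 and 96.2 CPM in PND 16 small, so these cohorts overlapped. They were 128, 133 and 121 CPM in PND 16 large and 149, 146 and 140 CPM at PND 40. Every competent pool was above every non-competent pool, with 136 ± 10.8 CPM against 101 ± 10.9 CPM (n = 6 pools each).

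The increase of Izumo1r passed the test but not the fold criterion. PND 40 vs. PND 13 gave a log2 fold change of 0.57 ± 0.097 (SE, 1.48-fold, edgeR adjusted p = 0.000794), just short of 1.5-fold. Competent vs. non-competent oocytes differed by 0.44 ± 0.079 on the log2 scale (1.35-fold, edgeR adjusted p = 0.000984). The gene also rose from PND 16 small to PND 40 (log2 fold change 0.49, edgeR adjusted p = 0.00237). From PND 13 to PND 16 large it rose by 0.38 on the log2 scale (edgeR adjusted p = 0.0123), which passed in only 2 of the 6 fits that left out 1 pool, without PND 13 replicate 2 or PND 16 large replicate 3 (edgeR adjusted p between 0.00127 and 0.0630 over the 6). Between the PND 16 cohorts of different weight, the pools did not overlap and the difference of 0.30 ± 0.097 did not pass (edgeR adjusted p = 0.060), though it did in 4 of 8 alternative settings (adjusted p from 0.0184 to 0.0745). Replicate 2 was the high pool of PND 13 and is the only PND 13 pool low in granulosa markers. Without the 3 pools rich in those markers, replicate 2 was the whole PND 13 cohort and was assumed to vary like the pools of the other cohorts. PND 40 vs. PND 13 then gave a log2 fold change of 0.32 (edgeR adjusted p = 0.0780) and PND 16 large vs. PND 13 one of 0.14 (edgeR adjusted p = 0.446), neither past the test. Competent vs. non-competent, then 6 against 3 pools, still passed (0.34, edgeR adjusted p = 0.0217). The part of granulosa RNA in the difference from PND 13 was not tested.

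**Figure D1:**
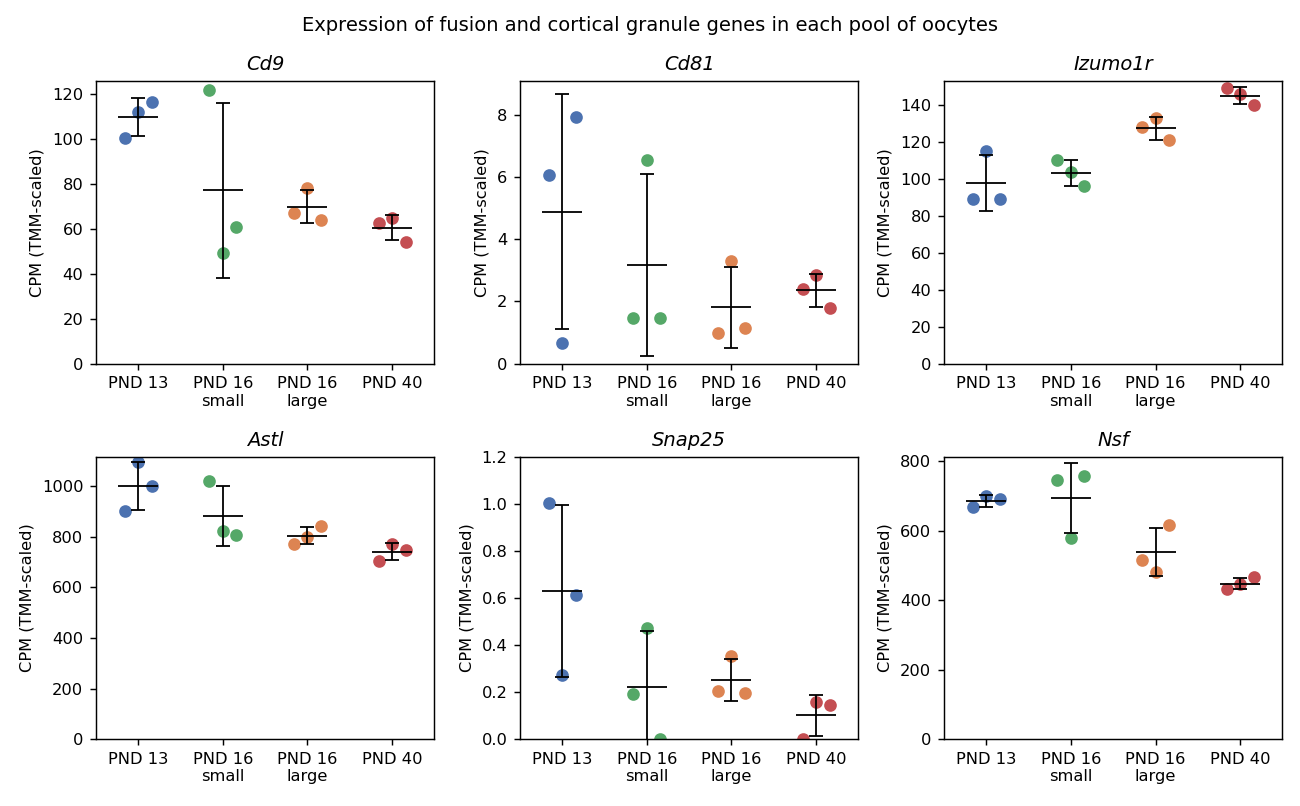
Expression of the 6 genes in each pool of oocytes in CPM (TMM-scaled, linear axis from 0), with 1 panel per gene and 1 point per pool, the 4 cohorts side by side in order of age. Bars are the mean ± SD of 3 pools. Izumo1r sits at 121 to 149 CPM in the competent pools, above all non-competent pools, while Nsf and Astl are lowest at PND 40.

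Cd9, the tetraspanin needed for fusion, was lower in the older oocytes, with wide scatter in PND 16 small. It lies on chromosome 6, at 125460266 to 125494791 on the minus strand, and its levels were 100, 112 and 116 CPM in the PND 13 pools. In PND 16 small, replicate 1 was at 121 CPM and replicates 2 and 3 at 49.0 and 60.8 CPM, so that 1 pool was near PND 13 and the others lay within or under the range of PND 40. The values were 67.1, 78.1 and 64.1 CPM in PND 16 large and 62.5, 64.7 and 54.3 CPM at PND 40. All pools of both of these cohorts were below all PND 13 pools.

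Cd9 fell by 0.86 ± 0.268 on the log2 scale from PND 13 to PND 40 and was called (1.81-fold lower, edgeR adjusted p = 0.0318). This call was lost whichever of the 6 pools was left out (edgeR adjusted p between 0.0528 and 0.10), with a change of -0.92 to -0.78. PND 16 large vs. PND 13 was -0.65 (edgeR adjusted p = 0.101), and competent vs. non-competent was -0.52 ± 0.199 (edgeR adjusted p = 0.0630), neither past the test. PND 16 small replicate 1 set the spread: without it, PND 16 small vs. PND 13 was called, with a log2 fold change of -1.0 (edgeR adjusted p = 0.00162), and PND 16 small no longer lay above the competent cohorts. Exons of Cd9 overlap Gm26728 on the opposite strand, and whether counting used the strand is not given in the sources used here.

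Cd81, the second tetraspanin of the egg surface, was scarce and unevenly spread. It lies on chromosome 7, at 143052739 to 143067934 on the plus strand, and overlaps exons of R74862 on the opposite strand. Its levels were 6.06, 0.664 and 7.94 CPM at PND 13, 1.46, 6.54 and 1.48 CPM in PND 16 small, 0.981, 3.31 and 1.15 CPM in PND 16 large and 2.40, 2.87 and 1.80 CPM at PND 40. The highest 3 values were those of the 3 pools highest in granulosa markers, and the lowest value was that of PND 13 replicate 2, the pool lowest in them. In none of the 7 comparisons did Cd81 pass, and competent vs. non-competent gave -0.95 ± 0.545 on the log2 scale (edgeR adjusted p = 0.204).

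Without those 3 pools the sign turned, to 0.80 ± 0.459 (edgeR adjusted p = 0.252), and from PND 13, then 1 pool, to PND 40 it was 1.80 (edgeR adjusted p = 0.140). No direction can therefore be given for Cd81. None of the 14 granulosa markers was at 0 in all pools, and 2 of them were called lower in competent oocytes, the FSH receptor gene Fshr and Kitl, which encodes KIT ligand. These 2 are 14.3%, beside 15% of all genes called. The 14 markers had a median log2 fold change of -1.47 in this comparison, against -0.0046 for all genes, though 11 did not pass the test. The sum of the 14 ranged from 131 to 638 CPM at PND 13, from 189 to 693 CPM in PND 16 small, from 205 to 218 CPM in PND 16 large and from 169 to 192 CPM at PND 40. The part of granulosa RNA in the Cd81 values was not tested.

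**Figure D2:**
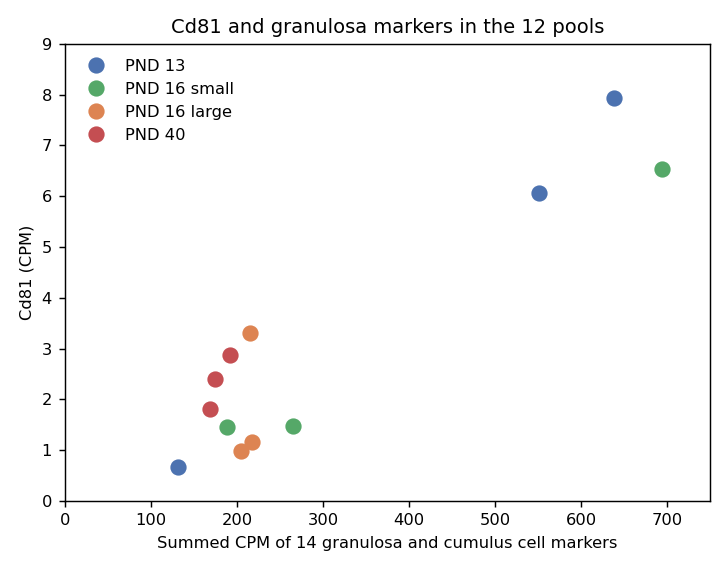
Cd81 (CPM, vertical axis) against the summed CPM of the 14 granulosa and cumulus cell markers (horizontal axis) in the 12 pools, colored by cohort. The 3 pools at 551 CPM or more on the horizontal axis, PND 13 replicates 1 and 3 and PND 16 small replicate 2, hold the 3 highest Cd81 values (6.06 to 7.94 CPM), while the other pools are at or under 3.31 CPM.

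Astl, which encodes the granule protease ovastacin, was abundant in every cohort and moderately lower in the older ones. It lies on chromosome 2, at 127338639 to 127357651 on the plus strand. The PND 13 pools were at 904, 1096 and 1002 CPM, and PND 16 small at 1018, 822 and 805 CPM. PND 16 large gave 773, 799 and 841 CPM, and PND 40 gave 704, 771 and 749 CPM. The pools of PND 16 large and of PND 40 were all below those of PND 13, and PND 16 small overlapped PND 13 and PND 16 large.

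Astl fell by 0.43 ± 0.095 on the log2 scale from PND 13 to PND 40 (edgeR adjusted p = 0.00369). It fell by 0.31 ± 0.094 from PND 13 to PND 16 large (edgeR adjusted p = 0.0269), which passed in only 2 of the 6 fits that left out 1 pool, without PND 13 replicate 1 or PND 16 large replicate 3 (edgeR adjusted p between 0.0182 and 0.0899 over the 6). In competent vs. non-competent oocytes it was -0.28 ± 0.079 (1.22-fold lower, edgeR adjusted p = 0.0145). All of these were smaller than 1.5-fold, so Astl was called in no comparison. PND 40 vs. PND 16 small did not pass (-0.25, edgeR adjusted p = 0.0607), though it did in 4 of 8 alternative settings (adjusted p from 0.0226 to 0.101). Without the 3 pools rich in granulosa markers, competent vs. non-competent was -0.34 (edgeR adjusted p = 0.0281).

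Nsf, the SNARE-recycling ATPase, was lower in the older oocytes. It lies on chromosome 11, at 103821782 to 103954056 on the minus strand. Its levels were 667, 701 and 691 CPM at PND 13 and 747, 578 and 757 CPM in PND 16 small, which overlapped. They were 517, 483 and 615 CPM in PND 16 large and 432, 447 and 466 CPM at PND 40, where every pool was below every pool of the other cohorts.

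Nsf was called lower at PND 40 than at PND 13, with a log2 fold change of -0.61 ± 0.105 (1.53-fold lower, edgeR adjusted p = 0.000762), and lower than in PND 16 small (-0.63 ± 0.105, 1.55-fold lower, edgeR adjusted p = 0.000748). The call against PND 13 held in each of the 6 fits that left out 1 pool. That against PND 16 small was lost without replicate 1 or replicate 3 of PND 16 small, where the change was -0.57 and so under 1.5-fold, still with adjusted p at 0.00232 and 0.00387. Nsf also fell between mice of the same age that differed in weight, by 0.37 ± 0.105 from PND 16 small to PND 16 large (edgeR adjusted p = 0.0371), with overlapping pools. This passed in only 2 of the 6 fits that left out 1 pool, without PND 16 large replicate 3 or PND 16 small replicate 2 (edgeR adjusted p between 0.00497 and 0.145 over the 6), and did not pass with only the cohorts compared (edgeR adjusted p = 0.122). Competent vs. non-competent was -0.48 ± 0.089 (1.40-fold lower, edgeR adjusted p = 0.0011), and without the 3 pools rich in granulosa markers it was -0.58 (edgeR adjusted p = 0.00317).

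Snap25, a SNARE of the target membrane best known from neurons, was near the limit of detection. It lies on chromosome 2, at 136713453 to 136782428 on the plus strand. The PND 13 pools held 21, 7 and 15 counts, PND 16 small 4, 10 and 0, PND 16 large 5, 9 and 5, and PND 40 0, 4 and 4. In CPM the largest pool value was 1.0, and the counts of 0 allow up to 0.178 CPM in PND 16 small replicate 3 and 0.129 CPM in PND 40 replicate 1, a limit of 3 counts that covers counting error only. PND 40 was below PND 13 in all pools. The difference, -2.53 ± 1.08 on the log2 scale, did not pass (unadjusted p = 0.0343, edgeR adjusted p = 0.0867), and Snap25 passed in no other comparison. The highest values, at 21, 15 and 10 counts, were those of the 3 pools highest in granulosa markers. No other pool reached 10 counts, so Snap25 was kept for testing through these pools. Without them the sign turned in competent vs. non-competent oocytes, and no direction can be given. The part of granulosa RNA in the Snap25 values was not tested.

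Members were called in the comparisons of PND 40 with the non-competent cohorts. In PND 40 vs. PND 13, 2 of 6 were called, Cd9 and Nsf, both lower, where 18.9% of all genes tested were called and 12.6% were called lower. Adjusted p alone passed 4 (33.1% of all genes), and 5 did not overlap between the cohorts (50.8% of all genes). Snap25 is 1 of these 5, and it was kept for testing through pools that include PND 13 replicates 1 and 3. Its separation from PND 13 is therefore not a result of its own. In PND 40 vs. PND 16 small, 1 was called, Nsf (17.2% of all genes), and 2 passed adjusted p alone (30.2%). The remaining comparisons called no member with edgeR.

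In PND 16 large vs. PND 13, which called 13.3% of all genes, 3 members passed adjusted p alone (25.6% of all genes), Izumo1r, Astl and Nsf, each in only 2 of the 6 fits that left out 1 pool. For Nsf the change was -0.35 ± 0.105 (edgeR adjusted p = 0.0262, between 0.0114 and 0.0944 over the 6). In the same comparison 4 had an unadjusted p under 0.05, as did 5240 of the 13943 genes tested, and DESeq2 called 1, Cd9. In PND 16 large vs. PND 16 small (6.19% of all genes called), Nsf passed adjusted p alone (12.3%). There, 2 had an unadjusted p under 0.05 (3934 of the 13943 genes), and DESeq2 and limma called 0. In competent vs. non-competent (15% of all genes called), 3 passed adjusted p alone (30.7%), Izumo1r higher and Nsf and Astl lower. In this comparison 4 had an unadjusted p under 0.05 (5865 of the 13943 genes), and DESeq2 and limma called 0. PND 16 small vs. PND 13 (0.373% of all genes called) had 0 members at an unadjusted p under 0.05 (2684 of the 13943 genes). PND 40 vs. PND 16 large (3.66%) had 1, Nsf (3123 of the 13943 genes), with 0 called by DESeq2 or limma in both comparisons. These comparisons share cohorts and are not independent of each other.

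**Figure D3:**
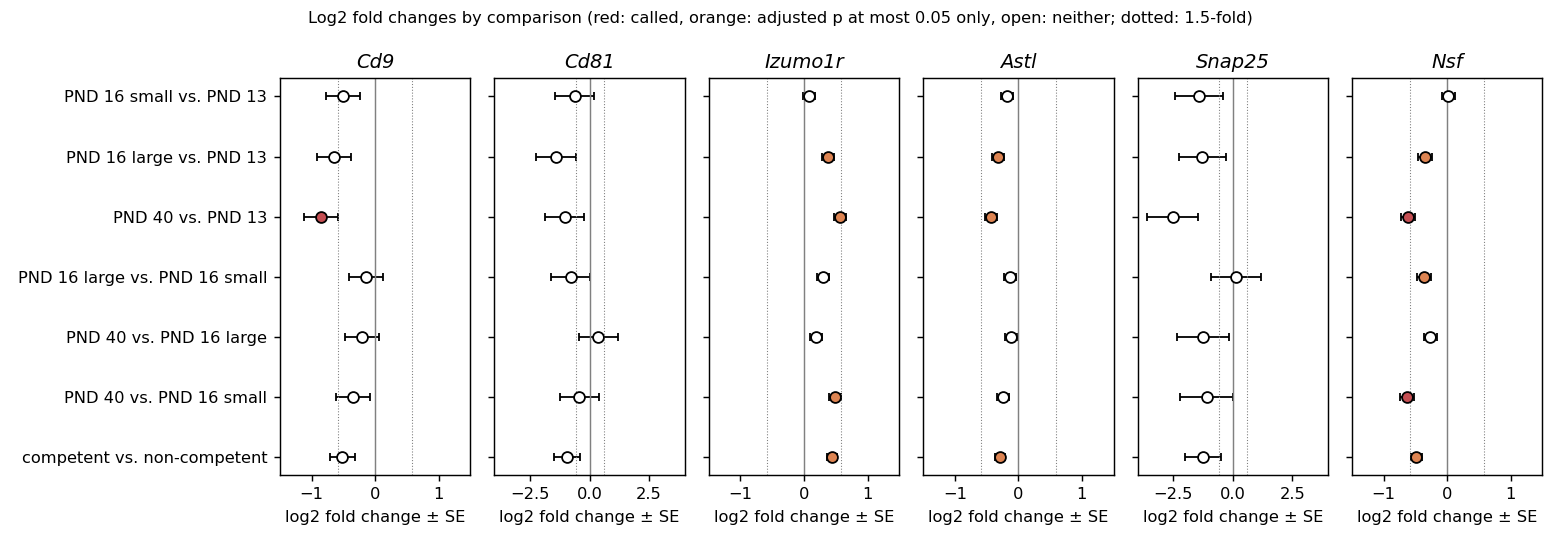
Log2 fold change ± SE of each member in the 7 comparisons, 1 panel per gene, with wider horizontal axes for Cd81 and Snap25. Red points are called, orange points pass adjusted p at most 0.05 only, open points pass neither, and dotted lines mark 1.5-fold. Nsf is called in PND 40 vs. PND 13 and vs. PND 16 small and Cd9 in PND 40 vs. PND 13, and Izumo1r is the only member with orange points to the right of 0.

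Per kilobase of exon, the members spanned nearly the whole range of the oocyte transcriptome. Over all pools Astl stood at 335 CPM per kilobase, rank 52 of 13777 genes with an exon length, Nsf at 70.9 (rank 478), Izumo1r at 51.0 (rank 747) and Cd9 at 38.8 (rank 1088). Cd81, at 1.06 CPM per kilobase (rank 9597), and Snap25, at 0.0445 (rank 13685), were below the median gene at 3.61. Exon length counts every annotated exon of a gene once, 8346 bases for Nsf and 2560 for Astl, so levels of genes with unused exons come out low. The order of Cd9 and Izumo1r differed between the youngest and oldest pools: Cd9 stood at 53.6 ± 4.12 and Izumo1r at 42.2 ± 6.48 CPM per kilobase at PND 13, and they stood at 29.6 ± 2.69 and 62.5 ± 2.01 at PND 40 (n = 3 pools). Izumo1r and Nsf, 42.2 and 82.2 CPM per kilobase at PND 13, came to 62.5 and 53.7 at PND 40.

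**Figure D4:**
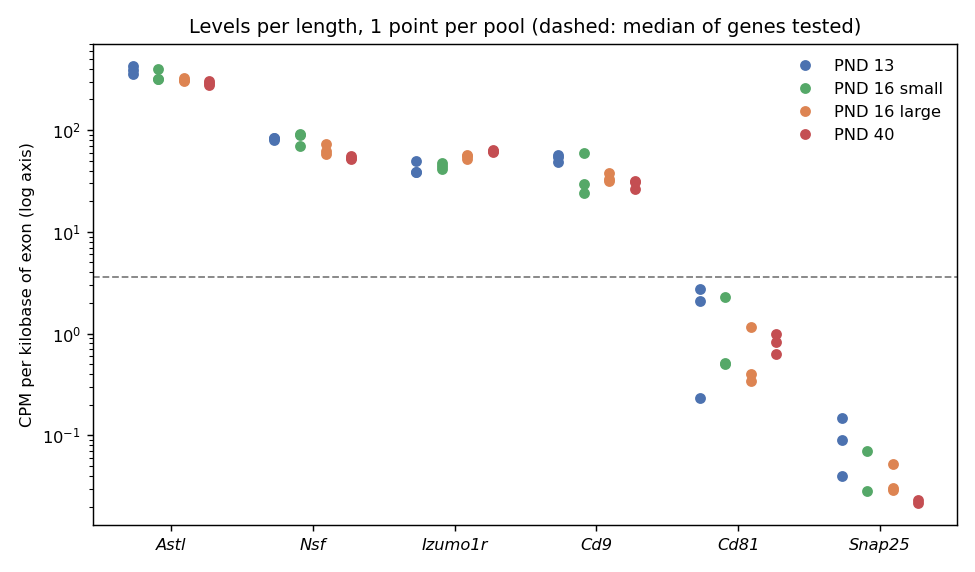
CPM per kilobase of exon (log axis) of the 6 members, 1 point per pool, colored by cohort, with the dashed line at the median of the genes tested (3.61). The 2 pools in which Snap25 had 0 counts cannot be drawn on this axis. Astl, Nsf, Izumo1r and Cd9 lie above the line in every pool, and Cd81 and Snap25 lie below it in every pool.

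Lists of related genes were compared between competent and non-competent oocytes, beside the 15% of all genes that were called. Of 14 tetraspanins, immunoglobulin partners and integrins that act with the egg-surface members, 12 were tested, of which 1 was called higher and 2 lower in competent oocytes, with a median log2 fold change of -0.08 against -0.0046 for all genes. Ptgfrn, a direct CD9 and CD81 partner, fell from 145 ± 42.7 to 76.8 ± 13.0 CPM (log2 fold change -0.91, edgeR adjusted p = 0.00188). The integrin gene Itga9 rose from 120 ± 16.6 to 190 ± 39.2 CPM (0.66, edgeR adjusted p = 0.00198), and Itgav fell (-0.71, edgeR adjusted p = 0.00463), a call not made without the 3 pools rich in granulosa markers (-0.34, edgeR adjusted p = 0.111). Igsf8, the other immunoglobulin partner of CD9, was at 11.4 ± 1.17 against 11.7 ± 2.47 CPM, and the integrin genes Itga6, at 408 ± 49.4 against 407 ± 56.2 CPM, and Itgb1, at 119 ± 12.4 against 133 ± 10.4 CPM, did not pass either (competent first, n = 6 pools each).

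Relatives of JUNO and ovastacin, listed together with the fetuin genes Ahsg and Fetub, varied in level. The folate receptor genes Folr1 and Folr2, from which the JUNO gene takes its family, reached at most 8 and 3 counts in a pool and were not tested. Among the 9 genes of this list 4 were tested, and the astacin protease gene Mep1b rose from 3.69 ± 1.69 to 7.02 ± 0.924 CPM (log2 fold change 0.93, edgeR adjusted p = 0.0145). Fetub, at 81.1 ± 4.10 against 55.7 ± 14.6 CPM, was higher by adjusted p but by less than 1.5-fold (competent first). Tll1, at 63.3 ± 16.6 against 58.1 ± 13.1 CPM, did not pass. In PND 16 large vs. PND 13, 3 of the 4 were called higher and 0 lower, where 13.3% of all genes were called. In PND 40 vs. PND 13, 2 were called higher and 1 lower (18.9% of all genes). Bmp1, another astacin family gene, fell (-2.94, edgeR adjusted p = 0.0104), a call not made without the 3 pools rich in granulosa markers (-1.51, edgeR adjusted p = 0.240). Of 28 genes that build and remodel the GPI anchor that holds JUNO in the membrane, 26 were tested, 1 was called higher and 2 lower, with a median of -0.019. Pigv (-1.01, edgeR adjusted p = 0.00117) and Pigp (-0.63, edgeR adjusted p = 0.0111) fell, and the call of Pigp was lost in 3 of the 12 fits that left out 1 pool. Piga, part of the enzyme for the first step of anchor synthesis, rose from 62.6 ± 3.82 to 78.9 ± 3.62 CPM, below 1.5-fold (0.33, edgeR adjusted p = 0.00132). Pigf was called higher (0.59, edgeR adjusted p = 0.0179), a call not made in 6 of the 12 fits that left out 1 pool nor without the 3 pools (0.53, edgeR adjusted p = 0.147).

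Of 36 SNAREs and NSF adaptors 34 were tested, and 4 were called, all lower (11.8%), with a median log2 fold change of 0.0087. Over all genes, 74.7% of the 2087 called in this comparison were lower. The syntaxin gene Stx3 fell from 9.30 ± 1.53 to 3.87 ± 1.08 CPM (-1.26, edgeR adjusted p = 0.000402) and Bet1l, a Golgi SNARE gene, from 7.88 ± 1.96 to 3.95 ± 0.953 CPM (-1.0, edgeR adjusted p = 0.00278). Stx16, a SNARE gene of the trans-Golgi network, was called lower too (-0.67, edgeR adjusted p = 0.0174). Without the 3 pools rich in granulosa markers it was as low, at -0.73, with an adjusted p over the threshold in the fewer pools (edgeR adjusted p = 0.0644). SNAP adaptors bring NSF to SNARE complexes. Of their genes, Napg fell by less than 1.5-fold (-0.39, edgeR adjusted p = 0.0497), whereas Napa, at 28.5 ± 1.92 against 30.2 ± 4.16 CPM, and Napb, at 1.03 ± 0.457 against 1.55 ± 0.695 CPM, did not pass. Snap23, the broadly expressed relative of Snap25, stood at 31.3 ± 1.95 against 26.9 ± 2.88 CPM, which did not pass (edgeR adjusted p = 0.0656). Vamp3, at 25.9 ± 7.05 against 37.0 ± 12.9 CPM, and Stx4a, at 2.15 ± 0.702 against 2.16 ± 1.02 CPM, did not pass, and Vamp1 and Vamp2 stayed under 4 CPM in every pool and did not pass.

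Of 52 factors of regulated exocytosis 43 were tested, and 6 were called higher and 6 lower (27.9%), with a median of 0.095. The active zone gene Rims1 rose from 11.6 ± 4.05 to 22.1 ± 2.34 CPM (0.94, edgeR adjusted p = 0.00225). Its relative Rims2 (1.13, edgeR adjusted p = 0.0497) and the complexin gene Cplx2 (0.99, edgeR adjusted p = 0.0455) were called but lost the call in 10 and 9 of the 12 fits that left out 1 pool. Cplx2 averaged 2.18 CPM at PND 13, 2.48 in PND 16 small, 2.56 in PND 16 large and 6.67 at PND 40. Its difference thus lay at PND 40 and not in both competent cohorts. Called lower were Syt9, a calcium sensor gene, from 18.3 ± 8.23 to 4.58 ± 1.11 CPM (-2.0, edgeR adjusted p = 0.000262), Exoc8, an exocyst subunit gene (-2.46, edgeR adjusted p = 0.000204), and the syntaxin-binding gene Stxbp3 (-1.09, edgeR adjusted p = 0.000732). Syt1, the classical calcium sensor of synaptic vesicles, rose by less than 1.5-fold, from 13.5 ± 1.70 to 17.9 ± 3.49 CPM (0.41, edgeR adjusted p = 0.0342). Without the 3 pools the change was as large, at 0.42, and did not pass in the fewer pools (edgeR adjusted p = 0.127). Rab27a, at 161 ± 7.89 against 151 ± 17.0 CPM, and Rab3a, at 13.5 ± 2.69 against 11.3 ± 1.0 CPM, small GTPases of secretory vesicles, did not pass, nor did Cplx1, under 1.5 CPM in every pool.

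Of 16 genes for cortical granule content, transport and release, all tested, 1 was called higher and 4 lower (31.2%), with a median of -0.13. Prkcb, a protein kinase C gene, rose from 3.21 ± 1.32 to 6.70 ± 2.23 CPM (1.06, edgeR adjusted p = 0.0124). The kinase C substrate genes Marcks (-1.01, edgeR adjusted p = 0.00883) and Marcksl1 (-1.91, edgeR adjusted p = 0.0277) and the lysosomal hexosaminidase gene Hexa (-1.24, edgeR adjusted p = 0.0306) were called lower. None of these 3 calls was made without the pools rich in granulosa markers, where the changes were -0.38, -0.13 and -0.53 (edgeR adjusted p = 0.263, 0.901 and 0.464). The other gene called lower, the protein kinase C gene Prkcd, stood at 35.5 ± 6.75 against 55.9 ± 4.23 CPM (competent first). Its competent pools reached at most 42.6 CPM, and its non-competent pools were at 47.8 CPM or more. Zp2, which encodes the target of ovastacin, fell from 3888 ± 313 to 2657 ± 550 CPM (1.46-fold lower, edgeR adjusted p = 0.00296), with no overlap between the groups. Rab11a, a small GTPase of recycling vesicles that helps move granules to the egg surface, rose by less than 1.5-fold (0.26, edgeR adjusted p = 0.0153), and Myo5b, at 1041 ± 44.4 against 1077 ± 77.2 CPM, did not pass.

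**Figure D5:**
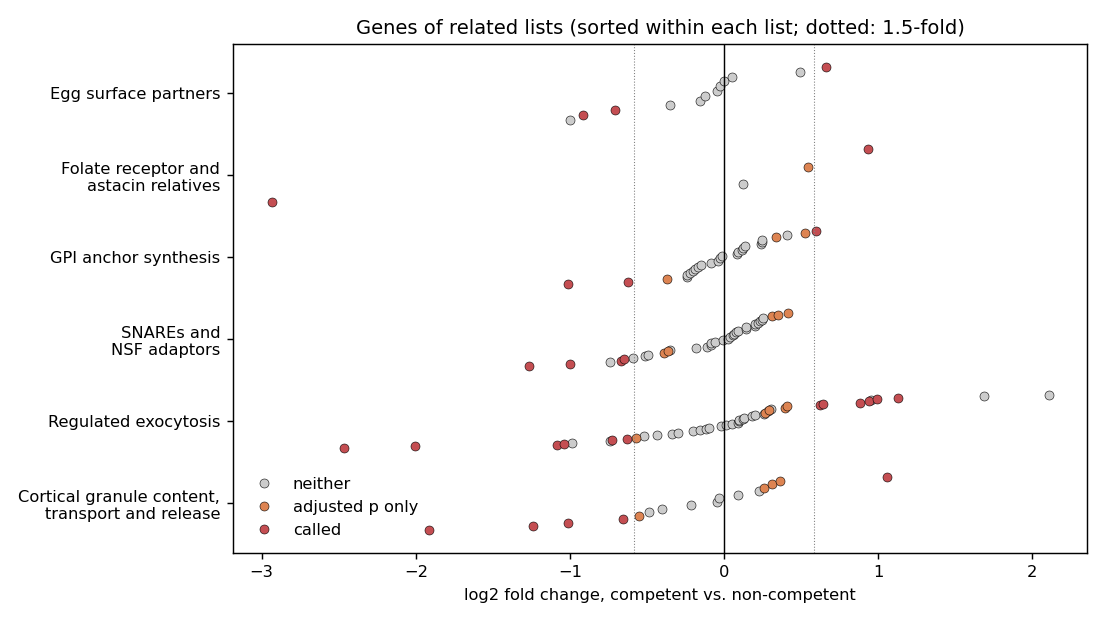
Log2 fold change, competent vs. non-competent, of the tested genes of the 6 related lists, sorted within each list. Red points are called, orange points pass adjusted p only, gray points pass neither, and dotted lines mark 1.5-fold. Called SNARE genes lie only to the left, and called exocytosis factors lie on both sides, 6 and 6. Of all genes called in this comparison, 74.7% were lower.

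Other genes followed the members closely over the 12 pools, given here as a description with Pearson's r of log2 CPM among genes with at least 5 CPM on average. Pools of a cohort and their library properties are shared by all these values. Nearest to Izumo1r were Limk2 (r = 0.982), Ttc41 (0.981) and Elac2 (0.980), and Limk2 went from 115 ± 9.73 CPM in non-competent to 143 ± 5.0 CPM in competent oocytes. Those nearest to Nsf were Hip1 (0.974), Tcf12 (0.972) and Ccdc88c (0.971), and Hip1 went from 71.5 ± 9.84 to 30.8 ± 9.42 CPM. Astl had Sbf1 (0.976), Scamp5 (0.959) and Pold1 (0.954), and Cd9 had Lclat1 (0.969), Tgfa (0.952) and Tmem185b (0.949), the last of which was at 10.9 ± 4.30 in non-competent and 5.75 ± 0.714 CPM in competent oocytes. For Cd81 they were Phactr2 (0.951), Kctd14 (0.934) and Prrc2b (0.920), and for Snap25, with its few counts, Mrfap1 (0.879), Pitpnb (0.874) and Wsb1 (0.872). With total counts in place of TMM, 13 of these 18 genes were again among the nearest 3.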

How the data were processed

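The authors prepared directional libraries from rRNA-depleted RNA of oocyte pools, sequenced them on a HiSeq and analyzed reads on the Rosalind platform. The submitters' processing notes name FastQC, STAR, HTSeq, DESeq2, DESeq and HOMER and the build mm10, without versions. Strand use in counting is not given in the sources used here. The authors deposited raw counts per gene, without normalization, and log2 values, the log2 of counts divided by a size factor, plus 1. The 6 members, the related lists and the rule for named genes were chosen with earlier results of these data known.

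Counts of all 12 pools were analyzed in R 4.3.3 with edgeR 4.0.16. The function filterByExpr (minimum count 10) kept 13943 genes, and TMM factors were 0.954 to 1.07. Pairwise comparisons were contrasts of 1 robust quasi-likelihood model of the 4 cohorts, and competent vs. non-competent used a model of 6 against 6 pools. P-values were two-sided and Benjamini-Hochberg adjusted over all genes tested, and a call needed an adjusted p of at most 0.05 and a 1.5-fold change, the study's criteria. Each SE was approximated from the quasi-likelihood F statistic as the size of the log2 change over √F. The script was tested on simulated data. Floors of 3 counts cover counting error only, since no molecular identifiers were used. Pools of a cohort differed by more than sampling noise (chi-square per gene 9.70 to 54.3).

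Named genes were every member, in each list the called genes with the 3 largest changes each way in competent vs. non-competent plus set partners of the members (1 partner is not reported here), and for each member the 3 genes with the highest r over the pools among genes averaging 5 CPM or more whose symbol is not of the Gm or Rik type. Ahsg, Fetub, Tll1 and Prkcd were named in addition to this rule. Levels per kilobase used GENCODE M21 exons on GRCm38. Promoters were those of RefSeq for 5 of the 6 members. The alternatives were DESeq2 1.42.0, RLE factors, total counts, no filter, no fold criterion, limma 3.58.1 on the deposited log2 values or with a pseudocount of 0.1, only the cohorts compared, a replicate block, and leaving out each pool. Leaving out together the 3 pools highest in granulosa markers was chosen after seeing the data. The table lists 5 symbols more than once, and none of them is a member.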

Additional observations from a re-analysis of the deposited data

How the results depend on the processing

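Of 708 log2 fold changes of the members recomputed under the alternatives, 656 kept their direction and their call or lack of one, by adjusted p and fold together. By adjusted p alone, 10 changes of members passed without being called, and 4 of these, Izumo1r, Astl and Nsf in PND 16 large vs. PND 13 and Nsf in PND 16 large vs. PND 16 small, lost it in 4 of 6 refits each when single pools were dropped (16 of 78 refits over the 10). The calls of members moved as follows. Without the fold criterion, 3 were called in PND 16 large vs. PND 13, 1 in PND 16 large vs. PND 16 small, 4 in PND 40 vs. PND 13, 2 in PND 40 vs. PND 16 small and 3 in competent vs. non-competent. DESeq2 and a fit of only the cohorts compared each called 1 in PND 16 large vs. PND 13, Cd9. Without the filter on low counts, PND 40 vs. PND 13 called 1, as it did without the 3 pools highest in granulosa markers, since Cd9 was lost (edgeR adjusted p = 0.0693 and 0.0827). Leaving out those 3 leaves 1 pool at PND 13, assumed to vary like the other cohorts. Without those 3 pools competent vs. non-competent called 1, Cd9 (-0.60, edgeR adjusted p = 0.0400). Leaving out 1 pool at a time gave 0 to 1 in PND 16 large vs. PND 13 (Cd81 without PND 13 replicate 2), PND 16 small vs. PND 13 (Cd9), PND 40 vs. PND 16 small and competent vs. non-competent, and 1 to 2 in PND 40 vs. PND 13. Izumo1r passed 1.5-fold in PND 40 vs. PND 13 without PND 13 replicate 2 (0.70) or PND 40 replicate 3 (0.59). Causes were not tested.

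Signs turned only where the change had not passed. For Cd81 without the 3 pools, values were 1.43 (PND 16 large vs. PND 13), 0.30 (PND 16 large vs. PND 16 small), 1.13 (PND 16 small vs. PND 13), 1.80 (PND 40 vs. PND 13), 0.67 (PND 40 vs. PND 16 small) and 0.80 (competent vs. non-competent). Without 1 pool, Cd81 ranged from -1.56 to 0.30 in PND 16 large vs. PND 16 small and from -0.78 to 0.67 in PND 40 vs. PND 16 small (positive without PND 16 small replicate 2), and Cd9 from -0.39 to 0.35 and from -0.60 to 0.14 (positive without PND 16 small replicate 1). In PND 16 small vs. PND 13, Izumo1r was -0.016 with total counts and -0.16 without the 3 pools, and Nsf was -0.084 with total counts, -0.0064 without the filter, -0.0033 with only the cohorts compared, and -0.064 to 0.12 without 1 pool. Snap25 without 1 pool gave -0.40 to 1.25 in PND 16 large vs. PND 16 small and -1.64 to 0.0048 in PND 40 vs. PND 16 small, and without the 3 pools 0.00050 in the latter and 0.11 in competent vs. non-competent. Total counts moved the median of all genes to -0.12 for the small and -0.13 for the large PND 16 oocytes against PND 13.

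Replicate numbers did not pair the pools: of 18 same-numbered pairs, 0 had a correlation of deviations over 0.1 (mean -0.0516), and 11 of 36 correlated best with their own number. The replicate block changed no member's call (2 in PND 40 vs. PND 13) and moved the count over all genes in PND 16 small vs. PND 13 from 52 to 10, which was also 361 with DESeq2, 25 with total counts, 2 with only the cohorts compared and 3 to 834 without 1 pool. In PND 40 vs. PND 16 large, 510 genes became 782 with DESeq2 and 1084 with only the cohorts compared, and in PND 16 large vs. PND 16 small 863 became 471 with only the cohorts compared. Pools of 3 per cohort and the few counts of Snap25 and Cd81 limit the precision of these changes.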

Other observations

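The marker lists used to describe the pools also held genes that differed between competent and non-competent oocytes. Of the 10 oocyte markers, 2 were called lower in competent oocytes and 0 higher (20%). This is near the 15% of all genes called in this comparison, of which 74.7% were lower. Ddx4, which encodes a germ cell RNA helicase, fell from 212 ± 22.1 to 120 ± 12.9 CPM (edgeR adjusted p = 2.68e-05), and Nlrp5, which encodes the maternal protein MATER, fell from 2125 ± 463 to 1378 ± 173 CPM (edgeR adjusted p = 0.00251), both without overlap between the 6 and 6 pools. The call of Nlrp5 was lost in 3 of the 12 fits that left out 1 pool. Of the granulosa markers, Kitl fell from 32.7 ± 12.1 to 16.5 ± 5.13 CPM (edgeR adjusted p = 0.00854), also without the 3 pools highest in these markers (edgeR adjusted p = 0.0279). Fshr fell from 2.04 ± 1.2 to 0.887 ± 0.409 CPM (edgeR adjusted p = 0.0432), a call not made without them (edgeR adjusted p = 0.516). The 7 theca and stroma markers tested had adjusted p of at least 0.136. Of the 3 blood, immune and endothelial markers tested, Kdr, which encodes a VEGF receptor, rose from 3.09 ± 1.02 to 5.82 ± 1.90 CPM (edgeR adjusted p = 0.0225), a call not made without the 3 pools (edgeR adjusted p = 0.106), and Pecam1 accounted for 52.0 to 64.6 CPM of that list's sum in each pool.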
